A study of Mus musculus with 9 samples.

Results

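The genes described here are 7 CC chemokines that draw monocytes and other leukocytes into tissue: Ccl2, Ccl7, Ccl8, Ccl12, Ccl3, Ccl4 and Ccl5. They were chosen by name, as the rows of the deposited table whose Ensembl identifiers map to these symbols, and all 7 were found among its 53379 genes. The table holds RNA-seq of bone marrow-derived Mϕs from C57BL/6 mice, with 9 libraries in 3 groups of 3. All cells were grown in CSF-1, the growth factor that turns bone marrow cells into Mϕs, at 10 ng/ml for 3 days. The control group then stayed in CSF-1 alone for 4 days, the IL-4 group had IL-4 added at 10 ng/ml, and the IL-6 group had IL-6 added at 100 ng/ml, per the labels (the study's methods give a higher dose of IL-4 and otherwise match, and its legends give another dose and a shorter time). The labels number the libraries of each group #1 to #3 and do not say whether a number stands for the same mouse in all groups.

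CC chemokines are small secreted proteins, named for a pair of adjacent cysteines, that bind G protein-coupled receptors on leukocytes and direct the cells along a gradient. Ccl2, Ccl7 and Ccl12 are ligands of Ccr2, the receptor by which inflammatory monocytes leave the bone marrow and enter inflamed tissue. Ccl3 and Ccl5 are ligands of Ccr1, Ccl4 attracts T cells, NK cells and monocytes, and mouse Ccl8 has been described as a ligand of Ccr8. Mϕs are a major source of these proteins.

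Levels are FPKM (fragments scaled to gene length in kilobases and to a library of 1000000 fragments), so levels of different genes can be set side by side. The test was limma with Benjamini-Hochberg adjustment, run on log2(FPKM + 0.1) in all 9 libraries at once for the 12824 genes whose FPKM averaged 0.5 or more, which include all 7 chemokines. Log2 fold changes are on this scale, where the pseudocount of 0.1 shrinks the changes of low genes. A gene passed if its adjusted p was under 0.05 and its log2 fold change was 1 or more in either direction, and "rose" and "fell" are used for that alone. Folds without "log2" compare mean FPKM, and errors given after ± are SD over 3 libraries unless a standard error is named.

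The libraries held 29988160 to 39909571 fragments, read back from the steps of the FPKM values. Socs3, a target gene of IL-6 signaling, was at 74.7 to 85.5 FPKM in the IL-6 libraries and at 1.61 to 3.23 FPKM in the other 6, and Arg1, a target gene of IL-4 in mouse Mϕs, was at 730 FPKM or more in the IL-4 libraries and at 5.33 FPKM or less elsewhere. The Mϕ markers Csf1r, Adgre1, Cd68 and Lyz2 were present in all 9 libraries, with at least 168 FPKM for Csf1r and 106 FPKM for Adgre1. The libraries also fall into sets that do not follow the groups: 13 intestinal Paneth and goblet cell genes took 24.8 to 35.7 of every 1000000 fragments in IL-4 #1 and the 3 control libraries, and 0.0990 to 0.245 in the 3 IL-6 libraries, IL-4 #2 and IL-4 #3. All control libraries are in the first set and all IL-6 libraries in the second, so each chemokine, and each other gene or list where a call was lost, is also described with the library set as a term in the fit. That term rests on IL-4 #1 against IL-4 #2 and #3.

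The 7 genes lie in 2 groups on chromosome 11 (GENCODE M21 annotation on GRCm38). On the plus strand are Ccl2 (chr11:82035571-82037453), Ccl7 (chr11:82045712-82047525), Ccl12 (chr11:82101845-82103400) and Ccl8 (chr11:82115185-82116799), with 79.6 kb from the start of Ccl2 to that of Ccl8. In the second group are Ccl5 (chr11:83525778-83530518, minus strand), Ccl3 (chr11:83647844-83649355, minus strand) and Ccl4 (chr11:83662584-83664683, plus strand). Each gene has 3 exons in the transcript that was compared. The coding sequences of Ccl3 and Ccl4 were the most alike of the 21 pairs, with 66.7% of aligned bases identical, followed by Ccl8 and Ccl12 with 64.4% and Ccl7 and Ccl12 with 63.2%. The coding sequence of Ccl2 has 148 codons, against 91 to 104 in the other 6. No stretch of 50 bases in the transcripts of the 7 was found in transcripts of any other gene. Gm17268, annotated on the opposite strand across Ccl2, was listed at 0 in all 9 libraries.

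Ccl8 and Ccl12 are neighbours that were both low in control Mϕs and higher with either cytokine, and Ccl3 was high in control Mϕs, so their promoters are shown for comparison. The 250 bases before the start come from RefSeq on GRCm38.p6, whose table held 3 of the 7 genes. They lie at chr11:82114935-82115184 (plus strand) for Ccl8, chr11:82101595-82101844 (plus strand) for Ccl12 and chr11:83649379-83649628 (minus strand) for Ccl3, and capitals mark TATAA on either strand:
Ccl8: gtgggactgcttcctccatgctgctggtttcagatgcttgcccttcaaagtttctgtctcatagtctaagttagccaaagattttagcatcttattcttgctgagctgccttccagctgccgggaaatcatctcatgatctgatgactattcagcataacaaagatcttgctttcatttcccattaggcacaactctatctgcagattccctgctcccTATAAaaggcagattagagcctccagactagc
Ccl12: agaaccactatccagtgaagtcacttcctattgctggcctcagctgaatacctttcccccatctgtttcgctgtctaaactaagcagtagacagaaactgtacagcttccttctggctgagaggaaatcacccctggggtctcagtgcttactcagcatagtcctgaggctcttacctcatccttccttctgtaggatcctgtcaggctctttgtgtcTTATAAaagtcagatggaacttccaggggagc
Ccl3: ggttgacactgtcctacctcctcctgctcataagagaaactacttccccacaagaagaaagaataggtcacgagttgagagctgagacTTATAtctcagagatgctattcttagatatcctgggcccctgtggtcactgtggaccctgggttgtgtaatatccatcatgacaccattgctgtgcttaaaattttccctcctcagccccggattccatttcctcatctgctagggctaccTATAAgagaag
The letters TATAA began 32 bases before the start in Ccl8 and 31 bases before it in Ccl12, where a match on the other strand overlapped them. In Ccl3 they began 11 bases before the RefSeq start, which lies 23 bases upstream of the M21 start given above, and so 34 bases before the M21 start, and a copy on the other strand lay 162 bases before the RefSeq start. For Ccl8 and Ccl12 both annotations give the same start. Of all 32851 promoters in the table, 22.8% held TATAA on either strand in the same 250 bases. Aligned over their whole length, the windows of Ccl8 and Ccl12 had 54.5% identical bases, those of Ccl8 and Ccl3 49.6% and those of Ccl12 and Ccl3 45.1%. The letters of NF-kB (GGG and CC with 5 bases between), STAT (TTCNNNGAA), STAT6 (TTC and GAA with 4 bases between), AP-1 (TGANTCA) and C/EBP (TTGCNNAA) sites, searched on both strands, were not in these windows. They were in 45.8%, 7.02%, 5.85%, 6.75% and 9.56% of all promoters.

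In control Mϕs Ccl3 and Ccl4 were the most abundant of the 7, at 96.2 ± 11.3 and 77.1 ± 19.1 FPKM (SD, n = 3). Ccl2 followed at 9.64 ± 3.06 FPKM, Ccl7 at 7.38 ± 1.91 FPKM and Ccl5 at 5.85 ± 0.827 FPKM. Ccl12 was at 1.23 ± 0.612 FPKM and Ccl8 was the lowest at 0.444 ± 0.457 FPKM. The ranges of neighbours in this order overlapped except between Ccl4 and Ccl2 and between Ccl5 and Ccl12. Under IL-4 the order was Ccl7, Ccl2, Ccl4, Ccl3, Ccl8, Ccl5 and Ccl12, with ranges apart between Ccl2 and Ccl4 and between Ccl8 and Ccl5. Under IL-6 it was Ccl8, Ccl3, Ccl4, Ccl5, Ccl12, Ccl7 and Ccl2, with ranges apart between Ccl4 and Ccl5 and between Ccl5 and Ccl12.

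**Figure D1:**
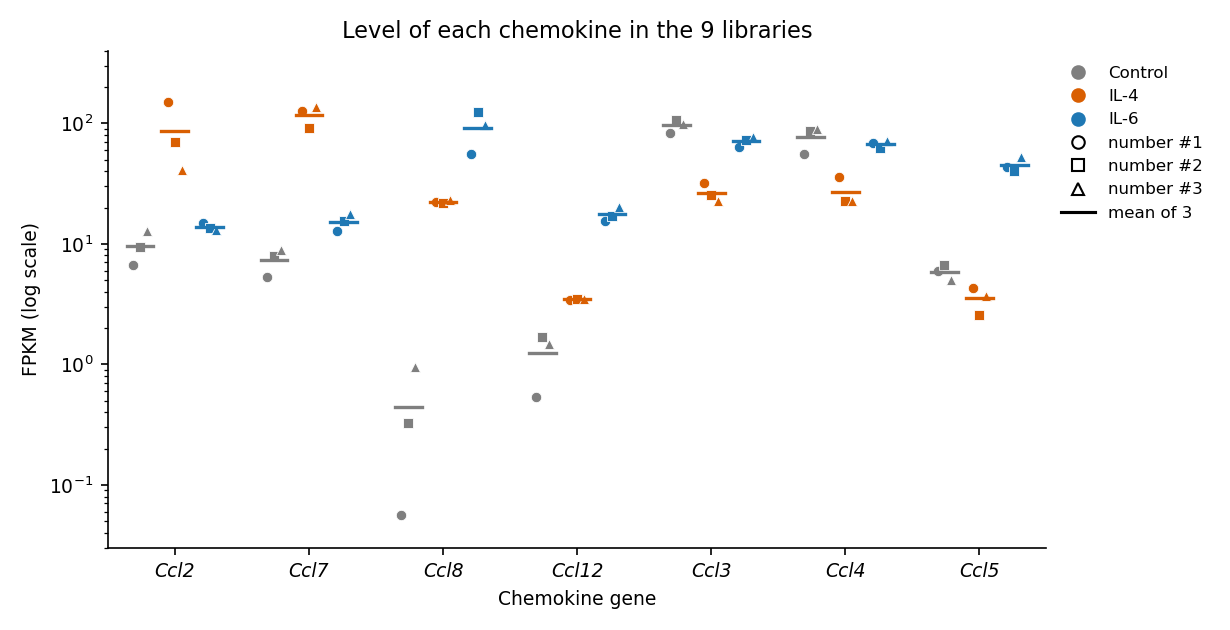
FPKM of the 7 chemokines on a log axis in the 9 libraries, colored by group, with a symbol for each replicate number and a bar at the mean of 3 libraries. The IL-4 libraries are highest for Ccl2 and Ccl7 and lowest for Ccl3 and Ccl4, and the IL-6 libraries are highest for Ccl8, Ccl12 and Ccl5.

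Against control, IL-4 raised 4 of the 7 chemokines (Ccl2, Ccl7, Ccl8 and Ccl12) and lowered 2 (Ccl3 and Ccl4), and Ccl5 did not pass. Over all 12824 genes tested, 5.02% were called higher and 8.89% lower with IL-4. IL-6 raised 4 (Ccl7, Ccl8, Ccl12 and Ccl5) and lowered none, where 3.49% of all genes were called higher and 1.89% lower. Between the cytokines, 5 were higher with IL-6 and 2 (Ccl2 and Ccl7) lower, where 13.6% of all genes were higher with IL-6 and 6.82% lower. The median log2 fold change of the 7 was 1.56 with IL-4, 1.06 with IL-6 and 1.42 for IL-6 against IL-4, beside −0.20, −0.00 and 0.22 over all genes tested. Rescaling each library by its median ratio moved the IL-4 median of all genes from −0.20 to −0.01, and the split of called genes from 644 higher and 1140 lower to 834 higher and 874 lower. IL-4 #3 stood apart in that rescaling, with a size factor of 0.766 against 0.990 to 1.07 in the other 8 libraries, and without it the IL-4 median of all genes was −0.07, with 855 genes higher and 1025 lower. Without IL-4 #3 the 6 chemokines called with IL-4 kept their calls, with log2 fold changes of 3.44 for Ccl2, 3.88 for Ccl7, 5.74 for Ccl8, 1.56 for Ccl12, −1.75 for Ccl3 and −1.40 for Ccl4. No chemokine changed direction with that rescaling, and its adjusted p-values are named below where they alter a call. The comparisons with control share the 3 control libraries.

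**Figure D2:**
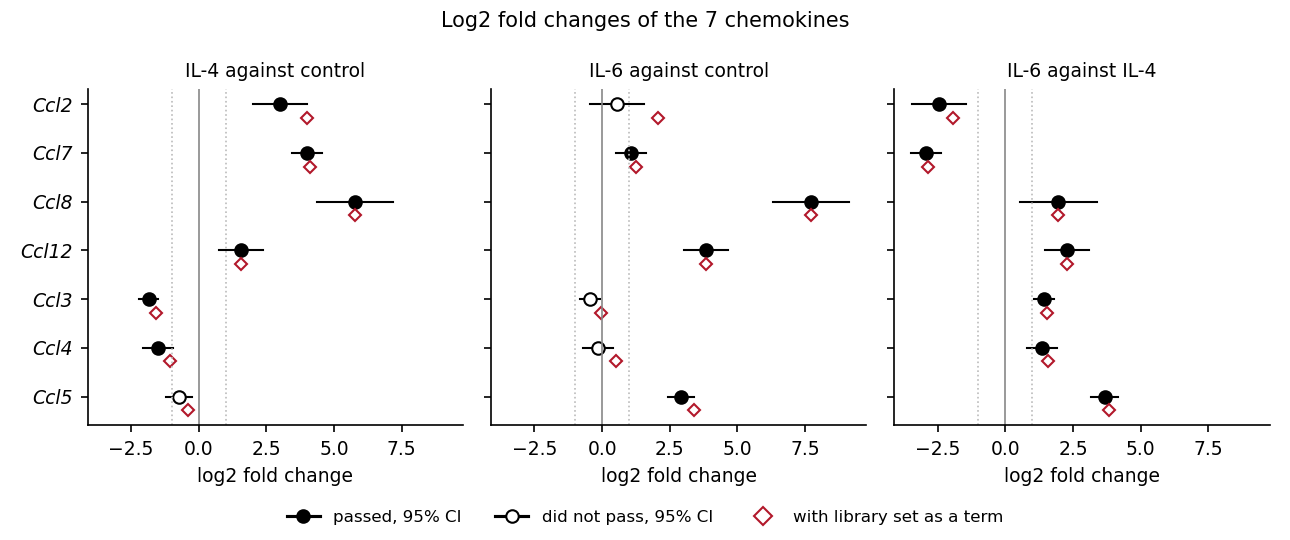
Log2 fold changes of the 7 chemokines in the 3 comparisons from limma on log2(FPKM + 0.1), with 95% confidence intervals. Filled points passed the threshold, dotted lines stand at a log2 fold change of 1 in either direction, and red diamonds are the values with the library set as a term, of which Ccl2 for IL-6 against control lies farthest from its point.

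Ccl2, the best-known monocyte chemoattractant, was at 6.70, 9.44 and 12.8 FPKM in Control #1, #2 and #3. It was at 150, 69.5 and 40.9 FPKM in the IL-4 libraries and at 14.9, 13.5 and 13.05 FPKM in the IL-6 libraries. All IL-4 libraries lay above all others, but they differed widely among themselves, from 40.9 to 150 FPKM. The mean was 9.01-fold higher with IL-4 than in control (log2 fold change 3.00, standard error 0.435, limma adjusted p = 0.00173). IL-6 libraries lay just above the control range, and the log2 fold change of 0.56 did not pass (95% CI −0.44 to 1.56, adjusted p = 0.537). With the library set as a term it was 2.06 (adjusted p = 0.108). Ccl2 was 6.29-fold higher with IL-4 than with IL-6 (log2 fold change of IL-6 against IL-4 −2.44, adjusted p = 0.00359).

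Ccl7, which recruits monocytes through Ccr2 as Ccl2 does, was at 5.26, 7.91 and 8.97 FPKM in the control libraries. It was at 127, 90.6 and 135 FPKM with IL-4 and at 12.8, 15.4 and 17.6 FPKM with IL-6. The 3 groups did not overlap. Ccl7 was 16.0-fold higher with IL-4 than in control (log2 fold change 3.99, standard error 0.240, adjusted p = 1.86e-05). Under IL-6 the mean was 2.07-fold higher, close to both thresholds (log2 fold change 1.06, standard error 0.240, adjusted p = 0.0324). That call was lost without any of the 6 control or IL-6 libraries, where the log2 fold change ranged from 0.84 to 1.22 (adjusted p 0.0540 to 0.128), and with the library set as a term (1.26, adjusted p = 0.222). It was also lost after median-ratio rescaling (adjusted p = 0.0591). Against IL-4, the IL-6 value was lower by a log2 fold change of −2.93 (adjusted p = 5.78e-05).

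Ccl2 and Ccl7, 10.1 kb apart, were at similar levels in control Mϕs, where the ratio of Ccl2 to Ccl7 was 1.19 to 1.43. In the IL-4 libraries #1, #2 and #3 the ratio was 1.18, 0.767 and 0.302, and in the IL-6 libraries it was 1.17, 0.881 and 0.740. The spread of Ccl2 between IL-4 libraries was thus not shared in full by Ccl7, whose coefficient of variation there was 20.2%, against 65.3% for Ccl2. Across the 9 libraries the r of their log2 values was 0.93, a description over libraries that share the same 3 groups.

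Ccl8 showed the largest rises of the 7. It rested on 1, 5 and 17 fragments in Control #1, #2 and #3 (0.0561, 0.326 and 0.948 FPKM), of which the first is under the floor of 3 fragments. It was at 22.2, 21.7 and 23.2 FPKM with IL-4, the closest agreement of any chemokine above 20 FPKM, and at 55.4, 123 and 97.6 FPKM with IL-6. The groups did not overlap. Against control the log2 fold change was 5.77 for IL-4 (standard error 0.612, adjusted p = 0.000346) and 7.73 for IL-6 (standard error 0.612, adjusted p = 0.000278). Because the control level is so low, these sizes depend on the pseudocount: pseudocounts of 1 and 0.01 gave 4.06 and 6.33 for IL-4 and 5.98 and 8.30 for IL-6, and both calls held. They also depend on which control libraries are used: without Control #1 they were 5.07 with IL-4 and 7.03 with IL-6, and without Control #3 they were 6.44 and 8.41, with both calls kept. With the library set as a term the values were 5.76 and 7.72 (adjusted p = 0.00826 and 0.0316).

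Ccl8 was 4.12-fold higher with IL-6 than with IL-4, although the adjusted p of 0.0390 lay near the threshold (log2 fold change 1.96, 95% CI 0.56 to 3.37). Without any of the 6 IL-4 or IL-6 libraries, or without Control #2, that adjusted p lay between 0.0510 and 0.121 and the call was lost, as it was with median-ratio rescaling (adjusted p = 0.0574). A fit of only these 6 libraries gave an adjusted p of 0.00656, with a standard error of 0.298 against 0.612 in the fit of all libraries. With all libraries, the adjusted p was 0.00192 with a pseudocount of 1 and 0.00275 with voom on the recovered fragments. Each of the 3 IL-6 libraries was above each of the 3 IL-4 libraries.

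Ccl12, another Ccr2 ligand, was above Ccl8 in control and below it with either cytokine. It was at 0.533, 1.68 and 1.49 FPKM in the control libraries (10, 27 and 28 fragments), at 3.43, 3.50 and 3.50 FPKM with IL-4 and at 15.5, 16.9 and 20.2 FPKM with IL-6. The groups did not overlap. Ccl12 was 2.82-fold higher with IL-4 (log2 fold change 1.56, standard error 0.355, adjusted p = 0.0142) and 14.2-fold higher with IL-6 (log2 fold change 3.85, adjusted p = 0.000549) than in control. The IL-4 call was lost when the IL-6 libraries were left out of the fit (adjusted p = 0.0570) and with the library set as a term (1.54, adjusted p = 0.122), and the IL-6 call with that term had an adjusted p of 0.0481. Between the cytokines Ccl12 was 5.04-fold higher with IL-6 (adjusted p = 0.00174). The ratio of Ccl8 to Ccl12, 13.3 kb apart, was 0.105 to 0.638 in control, 6.19 to 6.63 with IL-4 and 3.57 to 7.31 with IL-6, so Ccl8 went from the lower to the higher of the pair with either cytokine. The r of their log2 values over the 9 libraries was 0.92.

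Ccl3, also known as MIP-1α, was at 83.6, 105.6 and 99.3 FPKM in the control libraries. It was at 31.8, 25.5 and 22.6 FPKM with IL-4 and at 64.0, 72.0 and 77.2 FPKM with IL-6. No groups overlapped, and each IL-4 library was under each IL-6 library. IL-4 left Ccl3 at 27.7% of its control mean (log2 fold change −1.86, standard error 0.159, adjusted p = 0.000115). In bulk RNA such a fall cannot tell fewer cells that make a transcript from less transcript per cell. The IL-6 value of −0.43 on the log2 scale did not pass (95% CI −0.80 to −0.07, adjusted p = 0.158), and with the library set as a term it was −0.03. Ccl3 was 2.67-fold higher with IL-6 than with IL-4 (log2 fold change 1.42, adjusted p = 0.000300).

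Ccl4, also known as MIP-1β, lies 13.2 kb from Ccl3 on the opposite strand. It was at 55.1, 86.3 and 89.9 FPKM in the control libraries, at 36.0, 22.5 and 22.5 FPKM with IL-4 and at 69.1, 62.6 and 71.0 FPKM with IL-6. The IL-4 libraries were lower than all others, while the IL-6 libraries lay inside the control range. IL-4 left Ccl4 at 35.0% of control (log2 fold change −1.51, standard error 0.242, adjusted p = 0.00285), a call lost with the library set as a term (−1.06, adjusted p = 0.0509). The log2 fold change of IL-6 against control was −0.16 (95% CI −0.71 to 0.40, adjusted p = 0.760), and 0.52 with the library set as a term (adjusted p = 0.346), so no direction is given. Ccl4 was 2.50-fold higher with IL-6 than with IL-4 (adjusted p = 0.00363). The ratio of Ccl3 to Ccl4 stayed within 0.882 to 1.52 over the 9 libraries, and the r of their log2 values was 0.97.

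Ccl5, also known as RANTES, attracts T cells as well as monocytes. It was at 5.94, 6.63 and 4.99 FPKM in the control libraries, at 4.33, 2.58 and 3.68 FPKM with IL-4 and at 43.5, 39.8 and 52.4 FPKM with IL-6. All IL-6 libraries were far above the other 6, and the IL-4 libraries lay under the control range. Ccl5 was 7.73-fold higher with IL-6 than in control (log2 fold change 2.93, standard error 0.211, adjusted p = 0.000191) and 12.8-fold higher than with IL-4 (log2 fold change 3.67, adjusted p = 9.36e-06). With the library set as a term the first was 3.41 (adjusted p = 0.00805). Its log2 fold change of −0.74 for IL-4 against control (adjusted p = 0.0359) was under the fold threshold. That value was −0.42 with the library set as a term (adjusted p = 0.427) and −0.54 after median-ratio rescaling (adjusted p = 0.139).

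Exact permutation tests, two-sided, of 3 libraries against 3 gave p = 0.1, the smallest this design allows, for 20 of the 21 comparisons of a chemokine. The exception was Ccl4 for IL-6 against control, with an exact permutation p of 0.5. An exact permutation p of 0.1 here means only that the groups compared did not overlap. How often this holds over all genes tested was not counted, so the 20 comparisons are not read as a result about the chemokines. It was also reached where the limma fit gave no call: by Ccl2 and Ccl3 for IL-6 against control, and by Ccl5 for IL-4 against control.

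Within a set of libraries, IL-4 can be compared with control only through IL-4 #1, and with IL-6 only through IL-4 #2 and #3. The direction of each IL-4 call against control was also present in IL-4 #1. IL-4 #1, from the set that holds the control libraries, was at 15.6 times the control mean for Ccl2, 17.3 times for Ccl7, 50.1 times for Ccl8 and 2.79 times for Ccl12. It was at 0.330 times the control mean for Ccl3 and 0.467 times for Ccl4, both under the lowest control library. In the other set, the 3 IL-6 libraries averaged 14.5 times the mean of IL-4 #2 and #3 for Ccl5, 5.01 times for Ccl12, 4.11 times for Ccl8, 3.01 times for Ccl4 and 2.95 times for Ccl3. IL-4 #2 and #3 averaged 7.40 times the IL-6 mean for Ccl7 and 3.99 times for Ccl2. For all 7 genes, IL-4 #2 and #3 lay outside the range of the IL-6 libraries. How many of all genes tested do the same was not counted, so this separation is not read as a result about the 7. Between IL-6 and IL-4, 4375 of all 12824 genes tested had a limma adjusted p under 0.05, whatever their fold change.

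The make-up of the 7 transcripts as a pool differed between the groups. Their summed level was 198 ± 35.2 FPKM in control, 288 ± 76.4 FPKM with IL-4 and 323 ± 41.2 FPKM with IL-6 (SD, n = 3), and the lowest IL-4 library (236 FPKM) was above the highest control library (218 FPKM). Ccl3 and Ccl4 made up 87.6% ± 0.886 of the pool in the control libraries, 18.8% ± 1.37 under IL-4 and 43.3% ± 4.64 under IL-6. Ccl2 and Ccl7 made up 8.51% ± 1.27, 70.6% ± 3.08 and 9.09% ± 0.864. Ccl8, Ccl12 and Ccl5 made up 3.84% ± 0.392, 10.6% ± 2.28 and 47.6% ± 5.50. The share of Ccl2 and Ccl7 together varied little between the IL-4 libraries, from 67.9% to 74.0%, although that of Ccl2 alone ran from 16.3% to 40.1%.

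**Figure D3:**
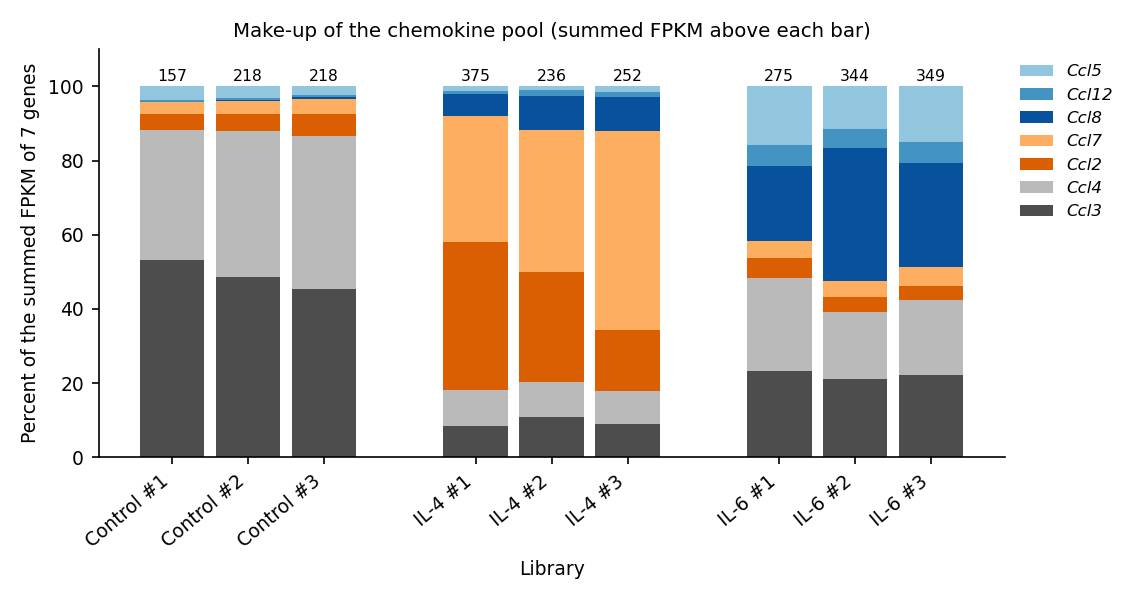
Share of each of the 7 chemokines in their summed FPKM, in percent, as stacked bars for the 9 libraries, with the summed FPKM of each library above its bar. Ccl3 and Ccl4 (grays) fill most of the control bars, Ccl2 and Ccl7 (oranges) most of the IL-4 bars, and Ccl8, Ccl12 and Ccl5 (blues) 41.6% to 52.4% of the IL-6 bars.

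Position on the chromosome did not divide the responses in the same way for both cytokines. With IL-4 the 4 chemokines around Ccl2 and Ccl8 rose, and Ccl3 and Ccl4 fell. Between Ccl5 and Ccl3 lie Ccl9 and Ccl6, CC chemokines outside the 7 that Mϕs make in large amounts, and both rose with IL-4. Ccl6 went from 232 to 325 FPKM in control to 2256 to 2735 FPKM with IL-4 (log2 fold change 3.11, adjusted p = 1.56e-05), and Ccl9 from 58.0 to 74.7 FPKM to 568 to 609 FPKM (log2 fold change 3.15, adjusted p = 3.36e-06). With IL-6 they were at 434 to 591 and 84.9 to 108 FPKM, and their log2 fold changes of 0.87 and 0.52 did not pass. With IL-6 the largest changes were those of Ccl8 and Ccl12 in the first gene group and of Ccl5 in the second. Ccl11, between Ccl7 and Ccl12, did not exceed 0.0616 FPKM in any library and Ccl1 did not exceed 0.116 FPKM.

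**Figure D4:**
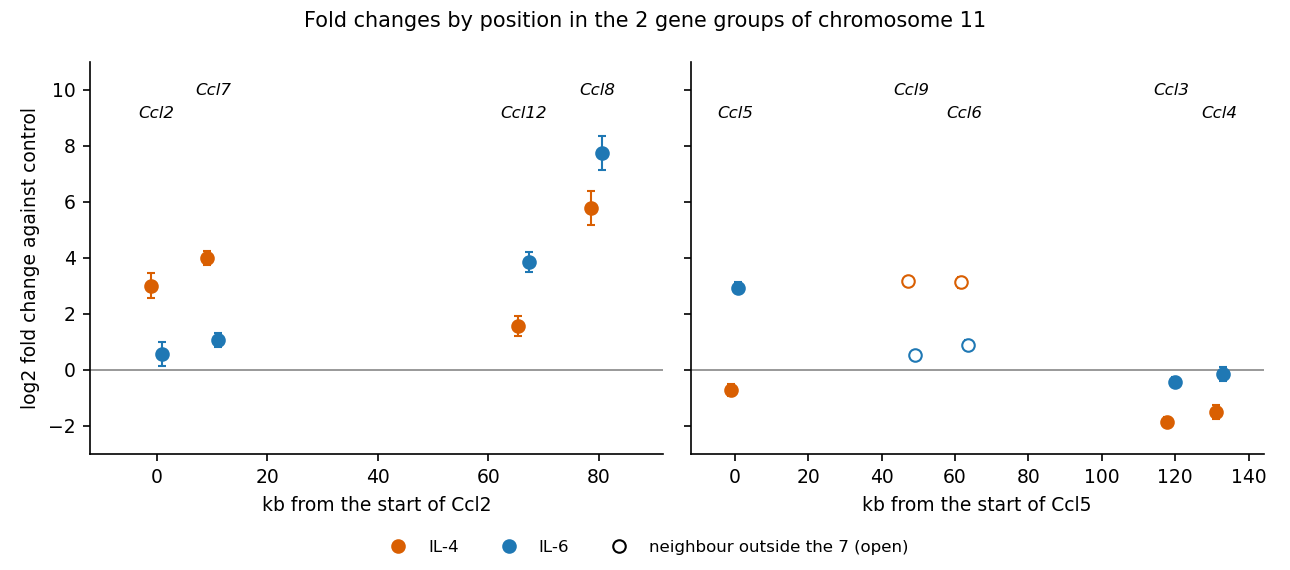
Log2 fold change against control (points, with standard errors) of the tested CC chemokine genes in the 2 gene groups of chromosome 11, by distance in kb from the start of Ccl2 (left) and of Ccl5 (right), with the IL-4 and IL-6 points set 1 kb to either side of each start. Open points are Ccl9 and Ccl6, which are not among the 7, and their IL-4 values lie near 3 while those of Ccl5, Ccl3 and Ccl4 on either side lie under 0.

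Receptors and decoys that bind these chemokines were read from the same fit. Ccr2, the receptor of Ccl2, Ccl7 and Ccl12, was at 3.18 to 4.50 FPKM in control, 0.586 to 3.30 FPKM with IL-4 and 38.5 to 44.5 FPKM with IL-6 (IL-6 against control log2 fold change 3.43, adjusted p = 0.00443, and 5.24 with the library set as a term, adjusted p = 0.00559). Its IL-4 value of −1.39 did not pass (adjusted p = 0.0737), and it was −0.19 with the library set as a term (adjusted p = 0.858).

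Ccr1, a receptor of Ccl3 and Ccl5, went from 31.2 to 38.9 FPKM in control to 76.5 to 125 FPKM with IL-4 and 79.2 to 92.3 FPKM with IL-6 (log2 fold changes 1.62 and 1.31, adjusted p = 0.000697 and 0.00557, with the IL-6 value at an adjusted p of 0.0605 with the library set as a term). Ccr3, a receptor known from eosinophils, fell with IL-4 by 2.45 on the log2 scale (adjusted p = 0.00399), a call lost with the library set as a term (−2.29, adjusted p = 0.0600). Ccrl2, a non-signaling receptor, fell with IL-4 by 1.45 on the log2 scale (adjusted p = 6.10e-05), and its IL-6 value of 0.82 did not pass the fold threshold. Ccr8, Ackr1 and Ackr2 were below the filter.

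Among 16 inflammatory cytokines and NF-kB genes that are known to act on chemokine genes, 13 were tested. Of these 13, IL-4 lowered 3 (Il1b, Relb and Nfkbiz) and raised none, with a median log2 fold change of −0.63. Of the 3 below the filter, Il6 (0.751 against 0.0471 FPKM) and Ifng (0.317 against 0 FPKM) had higher means with IL-4 than in control. Ifnb1 had a lower one (0 against 0.0296 FPKM). IL-6 raised 5 and lowered none, with a median of 0.81: Il1b by 4.47 (adjusted p = 4.98e-05), Tnf by 1.38, Nfkbia by 1.36, Nfkb2 by 1.30 and Relb by 1.11 on the log2 scale. Il1b was at 2.14 to 3.76 FPKM in control, 0.767 to 1.19 FPKM with IL-4 and 65.6 to 79.6 FPKM with IL-6. With the library set as a term, Il1b (adjusted p = 0.00917), Nfkb2 and Nfkbia still passed for IL-6, while Tnf (adjusted p = 0.0615) and Relb (0.247) did not.

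The chemokines moved beside markers of other cell types, whose part in the chemokine levels was not tested. Of 8 Mϕ markers, IL-4 lowered 5, and IL-6 raised 1 (Cd14) and lowered none. With the library set as a term, 3 of these 5 IL-4 calls were kept (Csf1r and Adgre1 were lost), and that of Cd14 with IL-6 was lost (adjusted p = 0.392). The sums of the 8 were 16662 to 18966 FPKM in control, 6021 to 7062 FPKM with IL-4 and 20369 to 21461 FPKM with IL-6. Most of each sum was Lyz2, with means of 14577, 5053 and 18488 FPKM. Itgam alone of the 8 had a positive IL-4 value (log2 fold change 0.71, adjusted p = 0.0701). The IL-6 values did not share a direction, with Cd68 at −0.66 (adjusted p = 0.0231) and Itgam at 0.91 (adjusted p = 0.0608) on the log2 scale. Of 7 inflammatory monocyte markers, IL-4 lowered 4 and IL-6 raised 5 (Ly6c2, Ccr2, Vcan, Plac8 and F13a1), and their summed level was 90.2 to 104 FPKM in control, 28.3 to 44.0 FPKM with IL-4 and 262 to 294 FPKM with IL-6. With the set as a term, F13a1 kept its IL-4 call and 4 of the 5 IL-6 calls were kept, without Plac8 (adjusted p = 0.150). All 10 neutrophil and granulocyte precursor markers were tested, and 9 were lower with IL-4 and none passed with IL-6, with sums of 4922 to 8808, 2193 to 4136 and 7986 to 11160 FPKM, and 4 of the 9 calls were kept with the set as a term. Of 7 mast cell and basophil markers, the 4 tested rose with IL-4, and Mcpt8 and Ms4a2 lost their calls with the set as a term. The sum of all 7 was 5.31 to 11.5 FPKM in control, 29.1 to 46.9 FPKM with IL-4 and 2.78 to 8.69 FPKM with IL-6. Cma1, below the filter, was at 0.303 to 0.667 FPKM with IL-4 and at 0 in all other libraries. Mcpt4 and Tpsb2 on that list were listed at 0 in every library.

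Of 12 T and NK cell markers 3 were tested. Gzma and Gzmb rose with IL-4 and kept their calls with the set as a term. Both reached the filter only through the IL-4 libraries, where Gzma averaged 29.3 FPKM and Gzmb 14.5 FPKM. In the other groups neither mean was above 0.0932 FPKM, so their passing the filter and their rise are not separate results. Nkg7 did not pass with IL-4 (log2 fold change 0.81, adjusted p = 0.218). The other 9 were below the filter, at 1.17 FPKM or less in every library, and each had a higher mean with IL-4 than in control, among them Cd3e (0.141 against 0.0506 FPKM), Cd8a (0.633 against 0.112 FPKM), Trac (0.867 against 0.206 FPKM) and Prf1 (0.724 against 0.0338 FPKM). The summed level of all 12 was 2.23 to 5.03 FPKM in control, 41.3 to 58.3 FPKM with IL-4 and 2.74 to 4.92 FPKM with IL-6. With IL-4 most of that sum was Gzma and Gzmb. None of 5 B cell markers passed in either comparison with control (sums of 27.7 to 50.4, 22.9 to 31.2 and 19.6 to 33.0 FPKM). Of 4 eosinophil markers, 2 (Prg2 and Ear1) fell with each cytokine. The sum of all 4 was 70.6 to 164 FPKM in control, 16.6 to 22.1 FPKM with IL-4 and 18.2 to 27.3 FPKM with IL-6. Both IL-6 calls were lost with the set as a term (adjusted p = 0.146 for Prg2 and 0.0975 for Ear1). Siglecf alone of the 4 had a positive IL-4 value (log2 fold change 0.87, adjusted p = 0.0914). It passed with the set as a term (1.53, adjusted p = 0.0373). Of 5 dendritic cell markers, Siglech was tested and fell with IL-4, a call lost with the set as a term (adjusted p = 0.0971). The sums of all 5 were 4.34 to 5.03, 1.14 to 2.13 and 2.55 to 4.82 FPKM. The others were below the filter and did not share a direction. Zbtb46 (0.385 against 0.0793 FPKM) and Xcr1 (0.0498 against 0.0217 FPKM) had higher means with IL-4 than in control. Flt3 (0.318 against 0.535 FPKM) and Cd209a (0.0501 against 0.655 FPKM) had lower ones. The 8 fibroblast and stromal markers, of a cell type that also makes Ccl2 and Ccl7, summed to 0.312 to 0.879 FPKM over all 9 libraries, and none was high enough to be tested.

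For each chemokine, the 3 tested genes whose log2 values ran most nearly parallel to it over the 9 libraries were found by Pearson's r, as a description of libraries that share 3 groups. Those of Ccl2 were Ap1s3, Gbp11 and Scd1 (r = 0.99, 0.98 and 0.98), and Scd1, the stearoyl-CoA desaturase, went from 1.00 ± 0.198 FPKM in control to 13.6 ± 8.35 FPKM with IL-4. Those of Ccl7 were Ccl6, which lies in the other gene group of chromosome 11, Tuba8 and Ramp3 (r = 0.99 each). Those of Ccl8 were Slc2a1, Shb and Pdpn (r = 0.98, 0.98 and 0.97), and Slc2a1, the glucose transporter Glut1, was at 7.31 ± 1.07 FPKM in control, 18.3 ± 2.05 FPKM with IL-4 and 22.3 ± 2.50 FPKM with IL-6.

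Those of Ccl12 were Cst7, Vmp1 and Pla2g7 (r = 0.98 each), and Pla2g7, which encodes a secreted phospholipase that breaks down platelet-activating factor, was at 82.3 ± 6.21 FPKM in control, 165 ± 18.6 FPKM with IL-4 and 463 ± 25.2 FPKM with IL-6. Ccl3 ran with Hps4, B4gat1 and Slc7a7 (r = 0.99 each), and Ccl4 with Cenpt, Dynlt1c and Gstt3 (r = 0.99, 0.97 and 0.97). Ccl5 ran with Cd302, Tnfsf14 and Ecm1 (r = 0.99 each), and Tnfsf14, the cytokine LIGHT, went from 2.16 ± 0.159 FPKM in control to 20.2 ± 2.81 FPKM with IL-6. No gene was among the nearest 3 of more than 1 of the 7 chemokines.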

How the data were processed

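RNA-seq of 9 libraries of mouse bone marrow-derived Mϕs was read from the table of FPKM values that the authors deposited. Per the methods and the submitters' processing notes, reads were aligned to GRCm38 with STAR 2.4.2a, and FPKM were made with Cufflinks 2.2.1 and the GENCODE M5 annotation. Identifiers were matched to GENCODE M21 (94.8% with their version). Low values were compared with whole fragments over M21 exon lengths: 100.0% of 92610 values under 50 fragments were whole within 0.05, and fragments per library were read from these steps. Values on such steps come from counting fragments rather than from estimated abundances, so the program behind the table is not settled. The floor was 3 fragments, which covers counting error only. Depth was 29988160 fragments or more in each library.

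Groups came from the labels. FPKM were transformed as log2(FPKM + 0.1) and fitted with limma 3.58.1 in R 4.3.3 (1 model with 3 groups, trend and robust eBayes, Benjamini-Hochberg adjustment over 12824 genes whose FPKM averaged 0.5 or more). Every adjusted p in the text comes from limma. The p-values measure the spread between the 3 libraries of a group, which the study gives as 3 mice. Single chemokines also had two-sided exact permutation tests. On simulated data of 11356 genes for IL-6 against control, with 200 genes changed by a log2 fold change of 2, the fit recovered 184 with 9 false calls. The simulation gave all genes the same dispersion and held no library sets and no library that stood apart. Its numbers check the code and do not give the error rate of IL-6 against control in the data.

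The genes named are the 7 chemokines, receptors (of which 1 on the list is not reported here), neighbouring CC chemokines, genes of the pathway lists that passed, and for each chemokine the 3 genes with the highest r. The chemokines and lists were chosen with earlier results of these data known, as was the division into sets of libraries by intestinal genes, at 1 of 1000000 fragments. Lyz1 was left out of that sum because it shares sequence with Lyz2. TATAA was searched after the promoters had been seen. Alternatives were pseudocounts of 1 and 0.01, no filter or a higher one (mean FPKM of 5), median-ratio rescaling, quantile normalization, a fit without the group not compared, a replicate block of the label numbers, no moderation, voom on the recovered fragments, the library set as a term, an adjusted p under 0.05 alone, and leaving out each library.

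Sequences were aligned with Biopython 1.88, and values were tabulated with pandas 2.3.3 and numpy 2.4.6 in Python 3.11.15 and plotted with matplotlib 3.10.9.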

Additional observations from a re-analysis of the deposited data

How the results depend on the processing

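Each of the 21 log2 fold changes of a chemokine was computed under 21 alternatives. Of these 441 values, 414 kept the call of the reported one, 26 lost it, 1 gained it and no called value changed direction, and 16 of the 21 results kept their call under every alternative run. The 5 that did not were Ccl12, Ccl4 and Ccl5 for IL-4 against control, Ccl7 for IL-6 against control (call lost in 11 of 21 alternatives) and Ccl8 for IL-6 against IL-4 (lost in 12 of 21). Ccl5 with IL-4 (log2 fold change −0.74) was called with an adjusted p under 0.05 alone. For the others the causes of the losses were not tested, except that leaving out a library leaves fewer samples. For Ccl7 the log2 fold change was 0.97 with a pseudocount of 1, just under the fold threshold, and its adjusted p was 0.0611 without the filter and 0.0669 without moderation. For Ccl8 the adjusted p was 0.1002 with a pseudocount of 0.01, 0.0745 without the filter, 0.0829 without moderation and 0.0651 with the library set as a term. In the other direction, it was 0.00192 with a pseudocount of 1 and 0.00275 with voom. Of the 7 chemokines, 4 to 7 were called for IL-4 against control over the alternatives that kept all libraries, 3 to 4 for IL-6 against control and 6 to 7 for IL-6 against IL-4. The paired fit, with the replicate block, called 6, 4 and 7, the same numbers as without it, and changed no call of a chemokine. No source used here says that a number marks the same mouse in all groups. The r of deviations from the group means over tested genes for #1, #2 and #3 was 0.521, −0.415 and 0.0777 (IL-4 with control), 0.408, 0.201 and 0.166 (IL-6 with control) and 0.281, −0.0612 and 0.153 (IL-6 with IL-4), and in 11 of 18 cases a library correlated best with its own number. With the library set as a term, 187 genes in all passed for IL-6 against control instead of 690, and 1111 instead of 1784 for IL-4 against control. The whole promoter window of 300 bases held no further match to any motif searched. Depth limits Ccl8 and Ccl12 in control Mϕs, where they rested on 1 to 17 and 10 to 28 fragments per library.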
